A study of Homo sapiens with 2 samples.

Results

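Toll-like receptors and the components of the NLRP3 inflammasome were followed in THP-1 cells, an established human monocytic leukaemia line. The set holds 10 genes fixed by name: TLR2, TLR4, TLR8, MYD88, IRAK4, IRAK1, TRAF6, NLRP3, PYCARD and CASP1. All 10 of the 10 named genes had entries in the expression table, with 33 of its 29373 listed transcripts and 10 of its 11697 gene symbols. One culture was treated for 48 h with 2 µM of an agent that the labels call OPA1, here a compound name and not the mitochondrial gene, and the other culture for 48 h with the solvent DMSO. Both were the same unmodified line in RPMI-1640 with serum, and each treatment was sequenced as 1 library from total RNA. There were no replicates, so no difference below could be set against replicate error, no test was possible and no p-value is given. According to its title, the series belongs to work on opioid receptor signalling and TET-dependent DNA demethylation in leukaemia. The comparison shows how the RNA of this innate immune pathway differed between a culture with the agent and a culture with solvent.

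Toll-like receptors recognise molecules of microbes at the cell surface or in endosomes. Ligand binding brings in the adaptor MYD88, which assembles the kinases IRAK4 and IRAK1 and, through them, the ubiquitin ligase TRAF6, which activates NF-κB and MAP kinases. In monocytes this signal also raises the sensor NLRP3, which in a later step joins PYCARD (the adaptor ASC) and the protease CASP1 into the inflammasome. CASP1 then cleaves the precursors of interleukin-1β and interleukin-18 and the pore protein GSDMD. THP-1 cells are a common model of this pathway.

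The data are FPKM, read fragments per unit of transcript length and of library size, which the authors deposited per transcript. Transcripts of each gene were summed. FPKM is scaled to length, so levels of different genes can be compared. The log2 ratios below are those of OPA1 over DMSO after adding 1 FPKM, which shrinks differences of low genes, while a ratio called plain is that of the FPKM values themselves. The listed FPKM summed to 331515 in the OPA1 library and 325059 in the DMSO library. Read depth is unknown, which leaves these values without a counting interval. In bulk RNA, fewer expressing cells and less RNA per cell cannot be told apart. Of the 12 monocyte markers listed for a check of the cells, 9 were measured, with summed levels of 247 FPKM in the OPA1 library and 232 FPKM in the DMSO library. LYZ, the lysozyme of monocytes, was at 91.0 FPKM with OPA1 and 76.5 FPKM with DMSO, and CD68, a lysosomal protein of myeloid cells, was at 14.2 FPKM with OPA1 and 20.7 FPKM with DMSO. CD14, CD163 and FCGR3A were not analysed here. Of 9 T and NK cell markers NKG7 alone was listed, at 27.9 FPKM with OPA1 and 26.9 FPKM with DMSO. The 2 erythroid and megakaryocyte markers listed of 7 summed to 1.82 FPKM with OPA1 and 1.44 FPKM with DMSO, and the 7 epithelial and fibroblast markers were not analysed here.

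None of the 10 genes was 2-fold apart between the libraries on the log2(FPKM + 1) scale, and their log2 ratios lay between -0.32 for TLR8 and 0.28 for TLR2. Among the 10601 genes that averaged 1 FPKM or more over both libraries, 3.96% were at least 2-fold apart in either direction. Without that minimum, which TLR8 alone of the 10 genes did not reach, the share was 4.07% of 11697 genes. With 10 genes a count of 0 is close to that background. A higher value with OPA1 was found for 3 genes (TLR2, MYD88 and PYCARD) and a lower one for 7, and the median log2 ratio was -0.04. Over those 10601 genes the median was 0.00 and the quartiles were -0.15 and 0.16, and 4 of the 10 genes lay between these quartiles. From high to low, the order of levels in the OPA1 library was PYCARD, CASP1, TLR2, IRAK1, NLRP3, MYD88, IRAK4, TLR4, TRAF6 and TLR8. The DMSO library differed from it in placing TLR2 below IRAK1 and NLRP3, and TRAF6 above TLR4.

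**Figure D1:**
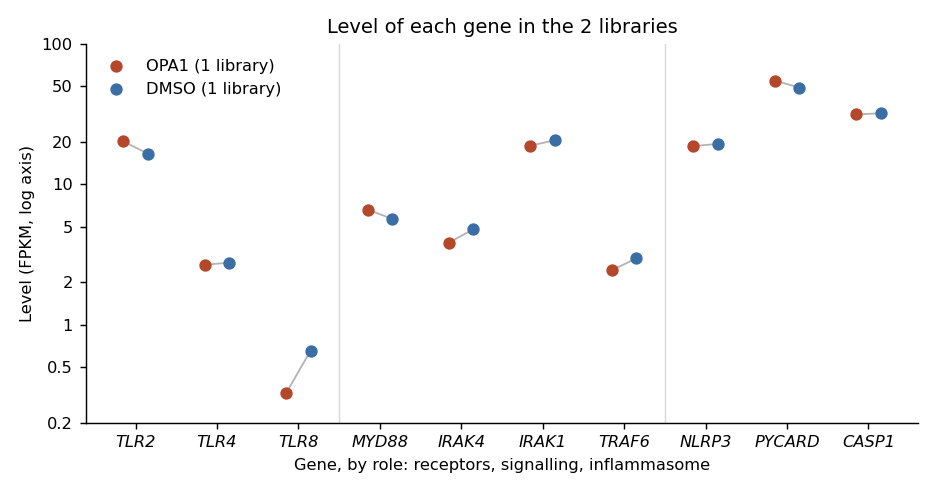
Level of each gene in FPKM on a log axis, with the OPA1 library on the left and the DMSO library on the right of each pair; each point is 1 library. PYCARD is highest at 54.9 FPKM with OPA1 and 48.9 FPKM with DMSO, and TLR8 is lowest at 0.326 FPKM with OPA1 and 0.654 FPKM with DMSO.

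Of the receptors, TLR2, which senses bacterial lipoproteins together with TLR1 or TLR6, was the most abundant. It was at 20.2 FPKM in the OPA1 library and 16.5 FPKM in the DMSO library, a log2 ratio of 0.28 and a plain ratio of 1.22. This was the largest log2 ratio above 0 of the 10 genes, and the gene ranked above 73.4% of all listed genes in level. Of 3742 genes with a mean level within 2-fold of TLR2, 23.5% had a log2 ratio at least as large in either direction, so a difference of this size was common at its level. TLR2 had 1 listed transcript, TLR2-201 (chromosome 4, 154622652 to 154626851, hg19, plus strand). The antisense genes TLR8-AS1 and PYCARD-AS1 overlap TLR8 and PYCARD, and AL160272.2 overlaps TLR4 on the same strand in GENCODE release 29. Whether reads were assigned by strand is not given in the sources used here, so reads of these overlapping genes cannot be told apart from those of the 3 genes.

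TLR4, the receptor for bacterial lipopolysaccharide, was at 2.67 FPKM with OPA1 and 2.77 FPKM with DMSO, a log2 ratio of -0.04. Its single listed transcript was TLR4-201 (chromosome 9, 120466650 to 120479149, plus strand). A difference at least that large was seen in 89.3% of the 3172 genes at a like level. TLR2 therefore exceeded TLR4 in level by 7.57 times in the OPA1 library and 5.98 times in the DMSO library.

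TLR8, an endosomal sensor of single-stranded RNA, was the lowest of the 10 genes. Its single transcript TLR8-201 (chromosome X, 12924739 to 12941288, plus strand) was at 0.326 FPKM with OPA1 and 0.654 FPKM with DMSO. The plain ratio was 0.50, that is 2.01-fold lower with OPA1, while the log2 ratio on the scale with 1 FPKM added was -0.32. Of 1064 genes with a mean within 2-fold of TLR8, 36.3% had a plain ratio at least as far from 1. That share is partly set by the listing, because every listed transcript reached 0.5 FPKM in a library. A gene with a mean below 0.5 FPKM is thus listed only if its values are unequal. TLR8 itself reached 0.5 FPKM with DMSO alone. TLR7, the neighbouring receptor gene of the same endosomal group, was at 0.309 FPKM with OPA1 and 0.796 FPKM with DMSO, 2.57-fold lower. It too was listed through its DMSO value alone, so its direction lends no support to that of TLR8. A plain ratio as far from 1 was found in 25.9% of the 1187 genes at the level of TLR7, a share that the listing minimum also partly sets. TLR6, a partner of TLR2, was at 0.803 FPKM with OPA1 and 0.765 FPKM with DMSO. The other 5 receptors of the family (TLR1, TLR3, TLR5, TLR9 and TLR10) were not analysed here.

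MYD88, the adaptor of TLR2, TLR4, TLR8 and the interleukin-1 receptor family, was at 6.61 FPKM with OPA1 and 5.68 FPKM with DMSO, a log2 ratio of 0.19. The kinase IRAK4, which MYD88 binds first, was at 3.84 FPKM with OPA1 and 4.80 FPKM with DMSO, a log2 ratio of -0.26 and a plain ratio of 0.80. IRAK1, the kinase that IRAK4 phosphorylates, was at 18.9 FPKM with OPA1 and 20.6 FPKM with DMSO (log2 ratio -0.12). TRAF6, the ubiquitin ligase downstream of IRAK1, was at 2.45 FPKM with OPA1 and 2.96 FPKM with DMSO (log2 ratio -0.20), on the single transcript TRAF6-202 (chromosome 11, 36508577 to 36531822, minus strand). The adaptor was thus higher and both kinases and the ligase were lower with OPA1, none by more than 1.25-fold. Log2 ratios at least as large were found in 47.0% of genes at the level of MYD88, 36.9% at that of IRAK4, 54.1% at that of IRAK1 and 50.3% at that of TRAF6. The level of MYD88 was 1.72 times that of IRAK4 with OPA1 and 1.18 times with DMSO.

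PYCARD and CASP1 were the most abundant of the 10 genes, and NLRP3 and CASP1 differed little between the libraries. NLRP3 was at 18.7 FPKM with OPA1 and 19.4 FPKM with DMSO, a log2 ratio of -0.05. CASP1 was at 31.4 FPKM with OPA1 and 32.1 FPKM with DMSO, a log2 ratio of -0.03. PYCARD, which bridges the sensor and the protease through its pyrin and CARD domains, was at 54.9 FPKM with OPA1 and 48.9 FPKM with DMSO, a log2 ratio of 0.16. PYCARD ranked above 91.0% of all listed genes, CASP1 above 84.6% and NLRP3 above 74.2%. A log2 ratio at least as large was seen in 81.7% of genes at the level of NLRP3, 88.0% at that of CASP1 and 36.9% at that of PYCARD. The proportions of the 3 components were close in both libraries: PYCARD stood at 2.93 times NLRP3 with OPA1 and 2.52 times with DMSO, and CASP1 at 1.68 times NLRP3 with OPA1 and 1.66 times with DMSO.

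**Figure D2:**
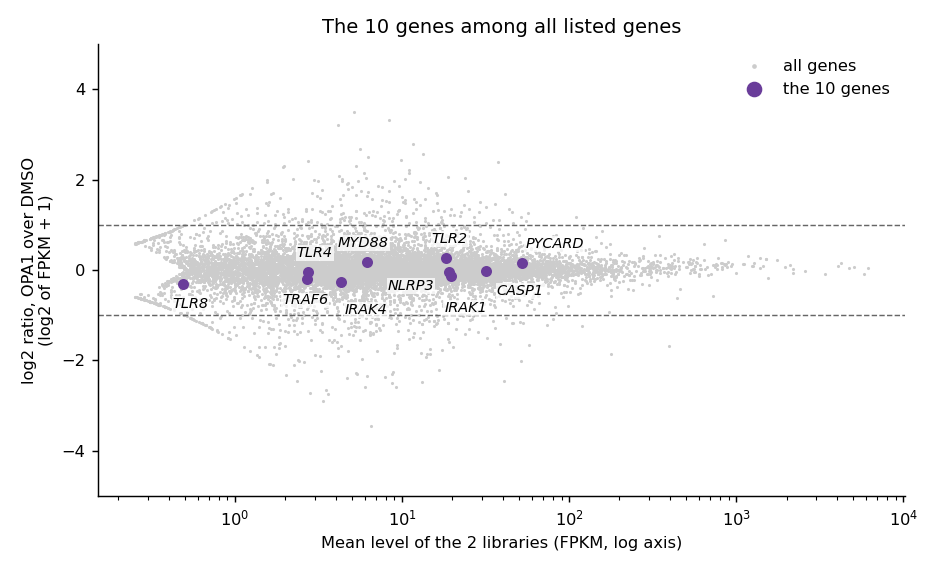
Log2 ratio of OPA1 over DMSO (after adding 1 FPKM) against the mean level of both libraries on a log axis, for all 11697 genes in grey and the 10 genes in purple; dashed lines mark 2-fold. All 10 points lie between the dashed lines, from -0.32 for TLR8 to 0.28 for TLR2.

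Behind the sums, 6 of the genes had more than 1 listed transcript, which were compared one by one. On the same scale 15.8% of all 29373 transcripts were at least 2-fold apart, against 2 of the 33 of these genes, CASP1-206 and IRAK1-209, both lower with OPA1. Among 7204 genes that averaged 1 FPKM or more and had 2 or more listed transcripts, the most abundant transcript differed between the libraries in 26.8%. This was so for 1 of the 6 genes, MYD88. The exchange of a gene, defined as the percentage of its FPKM found on other transcripts in the other library, had a median of 13.8% over those 7204 genes. It was 2.68% for PYCARD and 4.09% for NLRP3, below that median, and 23.6% for IRAK4, 19.99% for CASP1, 18.0% for MYD88 and 17.9% for IRAK1, above it. The exchange was larger in genes with more transcripts: its median was 8.73% for genes with 2, as MYD88 and PYCARD have, 14.1% with 3 (IRAK4), 18.4% with 4 (NLRP3), 18.6% with 8 (IRAK1) and 20.2% with 10 (CASP1). Set against these medians, MYD88 and IRAK4 lay above, PYCARD and NLRP3 below, and IRAK1 and CASP1 close to them. FPKM of overlapping isoforms come from a model that divides shared reads, and the error of that division cannot be judged from 1 library each.

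To show what these transcripts encode, the coding exons of each were taken from GENCODE release 29 by transcript ID. Some of the exons by which the forms differ are given here as read from the GENCODE transcript sequences (build GRCh38). Capitals mark the exon or exon part that 1 form has and the other lacks, with 15 coding bases on either side in lower case. The first belongs to MYD88-204 and is absent from MYD88-201 (chr3:38140569-38140592, plus strand). The second is an exon of IRAK4-214 that IRAK4-201 skips (chr12:43771220-43771365, plus strand). The next pair are exons of NLRP3-206 in the leucine-rich repeat region, of which NLRP3-205 lacks one (chr1:247429585-247429755) and NLRP3-204 the other (chr1:247435970-247436140), both on the plus strand. The fifth is present in PYCARD-201 and absent from PYCARD-202 (chr16:31202147-31202203, minus strand). The sixth is present in CASP1-215 and absent from CASP1-201, CASP1-203, CASP1-204 and CASP1-206 (chr11:105033064-105033126, minus strand). CASP1-201, CASP1-203 and CASP1-206 lack further coding exons that are not shown.
MYD88 part: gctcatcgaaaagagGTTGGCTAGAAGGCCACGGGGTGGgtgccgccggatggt
IRAK4 exon: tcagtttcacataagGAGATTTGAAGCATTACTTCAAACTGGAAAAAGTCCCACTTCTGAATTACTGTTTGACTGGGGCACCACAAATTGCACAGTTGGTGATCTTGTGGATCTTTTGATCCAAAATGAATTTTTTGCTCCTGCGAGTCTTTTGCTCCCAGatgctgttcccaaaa
NLRP3 exon missing from NLRP3-205: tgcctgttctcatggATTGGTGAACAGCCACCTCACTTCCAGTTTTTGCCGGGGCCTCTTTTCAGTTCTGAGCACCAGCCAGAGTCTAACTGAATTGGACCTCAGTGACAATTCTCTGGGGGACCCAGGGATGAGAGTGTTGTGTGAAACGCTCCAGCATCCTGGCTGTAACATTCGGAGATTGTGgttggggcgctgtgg
NLRP3 exon missing from NLRP3-204: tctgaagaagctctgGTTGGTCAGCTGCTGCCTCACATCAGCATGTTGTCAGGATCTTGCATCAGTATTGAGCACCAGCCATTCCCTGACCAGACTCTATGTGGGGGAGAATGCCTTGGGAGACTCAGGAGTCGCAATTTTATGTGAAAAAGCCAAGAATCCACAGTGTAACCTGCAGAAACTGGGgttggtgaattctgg
PYCARD exon: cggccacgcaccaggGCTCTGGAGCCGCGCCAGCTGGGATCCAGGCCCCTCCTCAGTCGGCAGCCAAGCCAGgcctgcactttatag
CASP1 exon: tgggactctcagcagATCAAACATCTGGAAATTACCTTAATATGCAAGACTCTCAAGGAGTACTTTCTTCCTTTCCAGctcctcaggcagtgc

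The MYD88 part is 24 bases, or 8 codons, at the end of an exon. MYD88-204, which carries it and encodes 317 residues, was at 3.62 FPKM with OPA1 and 2.09 FPKM with DMSO, a plain ratio of 1.74. MYD88-201, which encodes 296 residues, was at 2.99 FPKM with OPA1 and 3.59 FPKM with DMSO. The longer form therefore held 54.7% of the gene's FPKM in the OPA1 library and 36.7% in the DMSO library, and the higher sum of MYD88 came from it alone. Taken by the transcript that was most abundant over both libraries, MYD88-201, the log2 ratio of the gene would be -0.20, opposite in sign to that of the sum. The other 13 codons of difference lie at the start, where 39 bases are annotated as coding in MYD88-204 and as non-coding exon in MYD88-201. Both MYD88 transcripts were listed in a version other than that of GENCODE 29, so their exons and numbers of residues may differ from those described.

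In IRAK4 the transcripts of the full-length kinase were lower and the short one was higher with OPA1. IRAK4-214 and IRAK4-212, which share the coding sequence of 460 residues, together were at 2.51 FPKM with OPA1 and 4.27 FPKM with DMSO (log2 ratio -0.59). IRAK4-201 skips the exon of 146 bases shown above and is annotated with a later start and 336 residues. It was at 1.33 FPKM with OPA1 and 0.534 FPKM with DMSO, a plain ratio of 2.496 but a log2 ratio of 0.60, below 2-fold. The N-terminal part that it lacks carries the death domain with which IRAK4 binds MYD88. The short form made up 34.7% of the gene with OPA1 and 11.1% with DMSO. An exchange at least as large as that of IRAK4 was seen in 34.8% of the genes with 2 or more transcripts.

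IRAK1 had 8 listed transcripts. The form of 712 residues, IRAK1-203, was at 7.87 FPKM with OPA1 and 8.22 FPKM with DMSO. IRAK1-202, which lacks an exon of 237 bases and encodes 633 residues, was at 4.31 FPKM with OPA1 and 3.16 FPKM with DMSO, or 22.9% of the gene with OPA1 and 15.3% with DMSO. IRAK1-204, which lacks another piece of 90 bases and encodes 682 residues, was at 0.889 FPKM with OPA1 and 1.04 FPKM with DMSO. Transcripts with an incomplete annotated coding sequence held 25.2% of the gene with OPA1 and 34.9% with DMSO. These went both ways. Lower were IRAK1-209, at 0.277 FPKM with OPA1 and 2.21 FPKM with DMSO, and IRAK1-207, at 2.38 FPKM with OPA1 and 4.33 FPKM with DMSO. Higher were IRAK1-208, at 1.41 FPKM with OPA1 and 0.664 FPKM with DMSO, and IRAK1-210, at 0.681 FPKM with OPA1 and listed at 0 with DMSO.

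NLRP3 had 4 listed transcripts, and in both libraries most of its FPKM lay on forms that lack 1 of the repeat exons. NLRP3-205, which lacks the first exon shown, was at 9.91 FPKM with OPA1 and 9.93 FPKM with DMSO. NLRP3-204, which lacks the other, was at 5.17 FPKM with OPA1 and 4.89 FPKM with DMSO. Each exon is 171 bases, or 57 codons, so both forms encode 979 residues, and together they made up 80.5% of the gene with OPA1 and 76.4% with DMSO. The transcripts for the 1036 residues with both exons, NLRP3-201 and NLRP3-206, summed to 3.66 FPKM with OPA1 and 4.58 FPKM with DMSO, a log2 ratio of -0.26.

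PYCARD had nearly the same proportions of its forms in both libraries. PYCARD-201, for the full 195 residues with the linker between the pyrin and CARD domains, was at 36.7 FPKM with OPA1 and 33.9 FPKM with DMSO. PYCARD-202, which lacks the 57 bases shown and encodes 176 residues, was at 18.3 FPKM with OPA1 and 14.9 FPKM with DMSO. The shorter form held 33.2% of the gene with OPA1 and 30.6% with DMSO.

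For CASP1, 10 transcripts were listed, and the form of 404 residues was close in both libraries while some shorter forms were higher and others lower with OPA1. CASP1-215 and CASP1-202, which share the coding sequence of 404 residues, together were at 21.9 FPKM with OPA1 and 20.8 FPKM with DMSO, or 69.7% of the gene with OPA1 and 64.8% with DMSO. CASP1-203 and CASP1-216, with 263 residues, summed to 4.46 FPKM with OPA1 and 2.38 FPKM with DMSO. CASP1-206, with 311 residues, was at 0.366 FPKM with OPA1 and 2.74 FPKM with DMSO (log2 ratio -1.45). CASP1-204, with 383 residues, was at 2.01 FPKM with OPA1 and 2.38 FPKM with DMSO. CASP1-201, with 88 residues, was at 0.664 FPKM with OPA1 and listed at 0 with DMSO. The median exchange of genes with 10 listed transcripts rests on 35 genes. By its most abundant transcript CASP1 would have a log2 ratio of 0.23, against -0.03 for the sum. CARD16, a CARD-only gene beside CASP1 with a closely similar sequence, was at 26.1 FPKM with OPA1 and 21.97 FPKM with DMSO, and how reads were divided between the pair is uncertain.

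**Figure D3:**
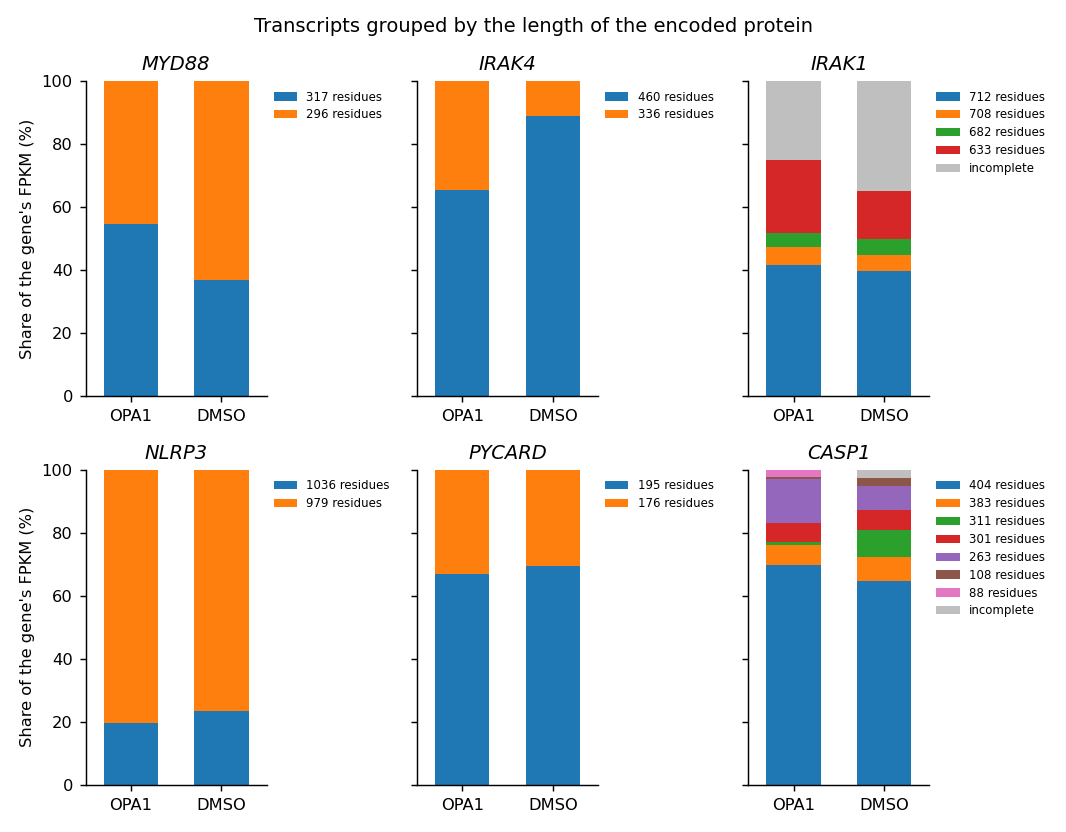
Share of each gene's FPKM (percent) on transcripts grouped by the number of residues they encode, for the 6 genes with more than 1 listed transcript, with OPA1 left of DMSO and transcripts of incomplete coding sequence in grey. The 336-residue form of IRAK4 makes up 34.7% with OPA1 and 11.1% with DMSO, and the forms of PYCARD and NLRP3 have nearly the same shares in both libraries.

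Because the series concerns DNA demethylation, the CpG content of the promoters is given as context; methylation was not measured in these libraries. The 250 bases before the start were available from RefSeq (build GRCh38.p14) for 9 of the 10 genes, all but CASP1, and for 35116 promoters in all, with a median of 11 CpG. These starts are those of RefSeq and were not matched to the starts of the listed transcripts. A window can thus lie away from the start of a listed transcript or within it. IRAK1 had 43 CpG, TLR2 had 26, TRAF6 had 24, IRAK4 had 22, MYD88 had 19 and PYCARD had 16, while TLR4 had 5, TLR8 had 4 and NLRP3 had 3. The genes thus fell on both sides of the median. The highest log2 ratio, 0.28, was that of TLR2 with 26 CpG, and the lowest, -0.32, was that of TLR8 with 4. IRAK4, with 22 CpG, was at -0.26. A link between CpG content and the ratios was not tested. The promoters of TLR2 and TLR8, which had the highest and the lowest log2 ratio, and that of PYCARD, the most abundant gene of the set, are shown with each CpG in capitals (TLR2, chr4:153684030-153684279, plus strand; PYCARD, chr16:31202761-31203010, minus strand; TLR8, chrX:12906370-12906619, plus strand).
TLR2 promoter: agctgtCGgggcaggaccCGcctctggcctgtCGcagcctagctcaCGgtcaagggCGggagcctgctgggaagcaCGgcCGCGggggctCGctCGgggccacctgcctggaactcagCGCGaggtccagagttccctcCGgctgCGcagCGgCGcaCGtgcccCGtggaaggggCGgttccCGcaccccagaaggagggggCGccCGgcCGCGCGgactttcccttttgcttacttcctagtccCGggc
PYCARD promoter: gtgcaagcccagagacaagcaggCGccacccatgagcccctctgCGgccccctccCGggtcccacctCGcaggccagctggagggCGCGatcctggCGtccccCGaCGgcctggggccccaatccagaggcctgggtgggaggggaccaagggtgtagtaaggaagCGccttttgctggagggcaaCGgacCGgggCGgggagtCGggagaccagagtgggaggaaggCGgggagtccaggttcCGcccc
TLR8 promoter: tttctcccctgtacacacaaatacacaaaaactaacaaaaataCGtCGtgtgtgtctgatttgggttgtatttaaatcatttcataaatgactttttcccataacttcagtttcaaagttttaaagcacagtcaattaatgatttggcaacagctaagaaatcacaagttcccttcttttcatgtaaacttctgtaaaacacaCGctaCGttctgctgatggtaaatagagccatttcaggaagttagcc

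Motifs were searched on both strands of these 250 bases. The core GAGGAA of PU.1 and other ETS factors was in the promoters of MYD88, NLRP3, PYCARD and TLR4, that is 4 of 9, against 23.6% of all promoters. In MYD88 and NLRP3, which also hold another of the motifs, the matches do not overlap. The letters TATAAA were in the promoter of NLRP3 and in 10.7% of all promoters, and an interferon response core was in that of MYD88 and in 3.02% of all. AP-1 (TGAGTCA, 4.20% of promoters), C/EBP (TTGCGCAA, 0.131%) and 1 form of the NF-κB site (0.179%) were found in none of the 9. Such matches are a description of the letters in this window only.

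The remaining genes of the pathway were described from lists by role. The lists were counted over genes that averaged 1 FPKM or more. Of all 10601 such genes, 49.9% had a higher value in the OPA1 library and 3.96% were at least 2-fold apart.

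Among co-receptors and chaperones of the receptors 7 of 12 listed genes were counted, 5 higher and 2 lower, and the median log2 ratio was 0.09 with none 2-fold apart. SLC15A4, an endosomal transporter needed for TLR7 and TLR9 signalling, was at 3.88 FPKM with OPA1 and 2.45 FPKM with DMSO. UNC93B1, which carries the endosomal receptors to their compartment, was at 26.4 FPKM with OPA1 and 21.9 FPKM with DMSO. CNPY3, a folding factor of the receptors, was at 83.3 FPKM with OPA1 and 74.9 FPKM with DMSO. RNASET2, a lysosomal RNase that releases ligands of TLR8, was at 27.1 FPKM with OPA1 and 25.4 FPKM with DMSO, with transcripts at least 2-fold apart in opposite directions. CD14 and LY96, which present lipopolysaccharide to TLR4, were not analysed here.

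Among adaptors, kinases and ubiquitin enzymes 23 of 26 genes were counted, 10 higher and 13 lower, with a median of -0.04 and none of the 23 at least 2-fold apart. TICAM2, which links TLR4 to TICAM1, averaged below 1 FPKM and was not counted. It was at 1.17 FPKM with OPA1 and 0.0766 FPKM with DMSO, a log2 ratio of 1.01, and was named after its values were seen. Its single transcript reached the listing minimum of 0.5 FPKM with OPA1 alone. IKBKG, the regulatory subunit of the IκB kinase complex, was at 3.73 FPKM with OPA1 and 6.60 FPKM with DMSO. MAP3K8, a kinase between NF-κB1 and the MAP kinase ERK, was at 6.28 FPKM with OPA1 and 4.35 FPKM with DMSO. TIRAP, the adaptor that brings MYD88 to TLR2 and TLR4, was at 2.10 FPKM with OPA1 and 3.10 FPKM with DMSO, whereas TICAM1, the adaptor of the MYD88-independent branch, was at 3.43 FPKM with OPA1 and 2.43 FPKM with DMSO. Both IκB kinases were nearly level, with CHUK at 10.6 FPKM with OPA1 and 11.1 FPKM with DMSO and IKBKB at 9.79 FPKM with OPA1 and 10.1 FPKM with DMSO; this pair was chosen after the values were seen.

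Of the negative regulators 15 of 16 genes were counted, 9 higher and 6 lower, with a median of 0.02. USP7, a deubiquitinase, was 2-fold apart, at 11.1 FPKM with OPA1 and 24.5 FPKM with DMSO. Its main transcript USP7-201 was at 11.1 FPKM with OPA1 and 16.6 FPKM with DMSO. USP7-202 and USP7-207 were listed at 0 with OPA1, and at 2.67 FPKM and 5.18 FPKM with DMSO. ZC3H12A, an RNase that degrades cytokine mRNAs, was at 1.95 FPKM with OPA1 and 0.716 FPKM with DMSO. The phosphatases INPP5D and PTPN6 differed in direction, INPP5D at 33.8 FPKM with OPA1 and 49.4 FPKM with DMSO and PTPN6 at 26.2 FPKM with OPA1 and 19.2 FPKM with DMSO. IRAK3, the inhibitory member of the IRAK family and here named after its value was seen, was at 27.1 FPKM with OPA1 and 27.9 FPKM with DMSO, or 7.05 times the level of IRAK4 with OPA1 and 5.81 times with DMSO.

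Other inflammasome sensors were lower in level than NLRP3. Of 12 genes 7 were counted, 4 higher and 3 lower, and the median log2 ratio was 0.04, or 0.29 by the most abundant transcript of each gene. IFI16, a DNA sensor, was at 12.5 FPKM with OPA1 and 9.80 FPKM with DMSO. CARD8 was at 9.09 FPKM with OPA1 and 10.0 FPKM with DMSO, and DPP9, its inhibitor, at 9.29 FPKM with OPA1 and 9.04 FPKM with DMSO. MEFV, which encodes pyrin, was at 3.16 FPKM with OPA1 and 2.26 FPKM with DMSO, and NLRP12 at 2.62 FPKM with OPA1 and 4.02 FPKM with DMSO. NLRC4, which forms an inflammasome in response to bacterial flagellin and secretion proteins, was at 1.84 FPKM with OPA1 and 1.503 FPKM with DMSO. Its partner NAIP, which binds these bacterial proteins, was at 1.23 FPKM with OPA1 and 1.55 FPKM with DMSO. In NLRC4, NLRP12 and NAIP different transcripts carried most of the value in each library: the exchange was 88.8% for NLRC4, 82.5% for NLRP12 and 59.9% for NAIP. NAIP-205 was at 0.737 FPKM with OPA1 and listed at 0 with DMSO.

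Among regulators of the inflammasome 10 of 18 genes were counted, 5 higher and 5 lower, with a median of 0.00, and 1 was 2-fold higher and 1 was 2-fold lower. DDX3X, an RNA helicase that binds NLRP3, was at 18.4 FPKM with OPA1 and 58.9 FPKM with DMSO (log2 ratio -1.63). Its main transcript DDX3X-201 was at 15.1 FPKM with OPA1 and 55.1 FPKM with DMSO. BRCC3, a deubiquitinase of NLRP3, was at 23.6 FPKM with OPA1 and 10.9 FPKM with DMSO (log2 ratio 1.05), with BRCC3-201 at 18.2 FPKM with OPA1 and 0.626 FPKM with DMSO and BRCC3-202 listed at 0 with OPA1 and at 3.40 FPKM with DMSO. TXNIP, a thioredoxin-binding protein that can bind NLRP3, was at 33.5 FPKM with OPA1 and 58.5 FPKM with DMSO. NEK7, the kinase that NLRP3 needs for assembly, was nearly level at 23.0 FPKM with OPA1 and 22.6 FPKM with DMSO; it was named after its value was seen.

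Among inflammatory caspases, pyroptosis genes and interleukin-1 outputs 9 of 13 genes were counted, 5 higher and 4 lower. Their median was 0.15, and -0.11 by the most abundant transcript of each gene. NINJ1, the membrane protein that ruptures cells late in pyroptosis (chromosome 9, 95883771 to 95896570, hg19), was 2-fold apart, at 4.21 FPKM with OPA1 and 11.1 FPKM with DMSO, a log2 ratio of -1.22 on its single listed transcript. GSDMD, the pore protein that CASP1 cleaves, was at 11.3 FPKM with OPA1 and 9.32 FPKM with DMSO, with an exchange of 51.2% among its transcripts. The cytokine precursor IL18 was at 8.88 FPKM with OPA1 and 7.70 FPKM with DMSO, its inhibitor IL18BP at 1.14 FPKM with OPA1 and 1.88 FPKM with DMSO. IL1B was low in both libraries, at 1.26 FPKM with OPA1 and 1.04 FPKM with DMSO, and IL1RN, the receptor antagonist, was at 10.2 FPKM with OPA1 and 10.8 FPKM with DMSO. Of the other caspases CASP4, a sensor of cytosolic lipopolysaccharide, was at 9.47 FPKM with OPA1 and 10.1 FPKM with DMSO, and CASP8 at 18.5 FPKM with OPA1 and 16.3 FPKM with DMSO. GSDME, listed under its older symbol DFNA5, was at 1.82 FPKM with OPA1 and 1.38 FPKM with DMSO on different transcripts.

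Of the 7 interleukin-1 family receptors that use MYD88, 1 was counted, the accessory protein IL1RAP at 5.94 FPKM with OPA1 and 7.15 FPKM with DMSO. Its exchange was 88.3%, with IL1RAP-201 at 5.73 FPKM with OPA1 and 0.593 FPKM with DMSO and IL1RAP-205 at 0.00456 FPKM with OPA1 and 5.66 FPKM with DMSO. Of 15 other pattern recognition genes 10 were counted, 6 higher and 4 lower, with a median of 0.02 and none 2-fold apart, among them the kinase RIPK2 at 4.29 FPKM with OPA1 and 5.30 FPKM with DMSO and NOD1, which senses bacterial peptidoglycan, at 2.79 FPKM with OPA1 and 3.18 FPKM with DMSO.

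Genes that these receptors induce in monocytes were found on both sides of 0. Of 30 genes 15 were counted, 7 higher and 8 lower, with a median of -0.02. NFKBIE, an inhibitor of NF-κB, was 2-fold apart, at 11.7 FPKM with OPA1 and 3.36 FPKM with DMSO, through NFKBIE-204 at 10.7 FPKM with OPA1 and 0.0218 FPKM with DMSO while NFKBIE-201 was lower. TNFAIP2 was at 5.27 FPKM with OPA1 and 7.27 FPKM with DMSO, and the cytokine CCL5 was at 19.0 FPKM with OPA1 and 18.2 FPKM with DMSO, which was named after its value was seen. TNF was at 6.29 FPKM with OPA1 and 10.7 FPKM with DMSO and NFKBIA at 19.6 FPKM with OPA1 and 12.7 FPKM with DMSO, with an exchange of 25.9%.

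**Figure D4:**
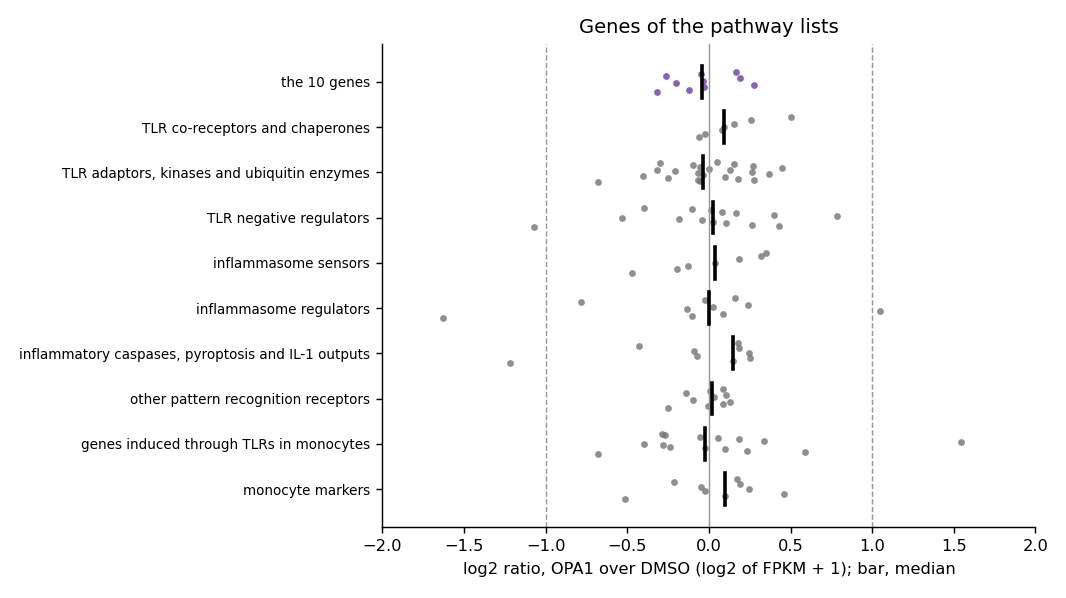
Log2 ratios of OPA1 over DMSO (after adding 1 FPKM) of the 10 genes in the top row and, below it, of the genes averaging 1 FPKM or more in each list with at least 5 of them; each point is a gene, the bar is the median and dashed lines mark 2-fold. The medians lie between -0.04 and 0.15, and 5 genes of the lists lie outside the dashed lines.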

How the data were processed

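Total RNA of 2 THP-1 cultures was sequenced, 1 library per treatment, per the labels' protocols. The values are FPKM of single transcripts as the authors deposited them, by the file headers. HISAT, StringTie, edgeR and build hg19 are named in the submitters' processing notes, without versions or roles. Every listed transcript was protein coding and reached 0.5 FPKM in a library; others were not analysed here, nor were 2 emptied lines. Depth is unknown: FPKM times length of the 300 lowest single-transcript genes showed no step of 1 read (best alignment, on a scale of 0 to 1, 0.192 with OPA1 and 0.162 with DMSO), so no count test was run.

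Transcripts were summed per symbol, with 1 FPKM added before log2. Genes and lists were chosen with earlier results of these data known. Named were the 10 genes, up to 4 genes per list with the largest ratios, and every listed gene of 3 lists (other receptors, sensors, and the list of inflammatory caspases, pyroptosis and interleukin-1 outputs). A marker list of another cell type is not reported here. Sums, counts and exchanges were tested on simulated data. GENCODE 29 gave coding exons by transcript ID (30 of 33 in the same version, all but MYD88-201, MYD88-204 and TLR4-201). Alternatives are listed in the closing section. Tables were handled with pandas 2.3.3 and numpy 2.4.6 under Python 3.11.15, and figures drawn with matplotlib 3.10.9.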

Additional observations from a re-analysis of the deposited data

How the results depend on the processing

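With 1 library each, differences have no replicate check, no paired analysis was possible because the labels give no replicate pairs, and counting error cannot be judged. None of the 10 genes became 2-fold apart on the log2 scale under any of the 7 other settings chosen at the start or the 1 chosen after seeing the data (only transcripts of the longest protein of each gene). Of 157 alternative values 14 moved, taken as more than 0.1 in log2 or over 1.5 times in a count, and 9 changed sign. The 157 include values that could not move. The ratios of the 10 genes do not depend on the minimum, so no minimum and a minimum of 5 FPKM left them as they were. Nor could the choice of transcript change TLR2, TLR4, TLR8 and TRAF6, which had 1 listed transcript each. Centring on the median gene and scaling on a mean trimmed by 30% moved none. For TLR8 the log2 ratio was -0.83 with 0.1 FPKM added and -0.60 with libraries rescaled to a sum of 1000000. The listed FPKM summed to 331515 with OPA1 and 325059 with DMSO, so rescaling raised the values of both libraries. The added 1 and the minimum of 1 stayed, so rescaling also acted as a smaller added value and a lower minimum. Taking the most abundant transcript gave -0.20 for MYD88, -0.51 for IRAK4 and 0.23 for CASP1, and medians of 0.29 for the other sensors and -0.11 for the caspase and interleukin-1 list. Transcripts of the longest protein gave 0.58 for MYD88, -0.59 for IRAK4 and -0.26 for NLRP3, and CASP1 was at 0.07. Counts of all 2-fold genes were 640 with 0.1 FPKM added, 234 at a minimum of 5 FPKM, 771 after rescaling and 1199 by the most abundant transcript, against 420. Except with 0.1 FPKM added, the set of genes counted was not that of the 420, so these counts cannot be compared as shares. The causes of the differences between the libraries were not tested.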
